A study of Homo sapiens with 12 samples.

Results

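The mRNAs of 10 proteins that detect RNA inside human cells, or relay its detection, were followed: the receptors DDX58, IFIH1, DHX58, TLR3, EIF2AK2 and ZBP1, the adaptors MAVS and TICAM1, and the kinases TBK1 and IKBKE. The 10 genes were chosen by name from the 58735 genes of the expression table, with earlier results of these data known. They were measured by poly(A) RNA-seq in NCM460, a human colonic epithelial cell line, in 12 libraries of 4 groups with 3 libraries each: cells in medium, cells given the cytokine TNF-α, cells given TNF-α with 5-OH-TMT (labelled Bufotenidine, a trimethylated derivative of serotonin), and cells given TNF-α in which the mRNA of the mitochondrial serine protease HTRA2 was lowered by siRNA. The last group is called the knockdown here. A figure legend of the study sets the knockdown against cells given si-CTRL, but no library here carries that label and the labels name no siRNA for the TNF-α group, so transfection and loss of HTRA2 cannot be told apart if those cells were not transfected. Whether the knockdown libraries share 1 siRNA or were made with 3, and the dose and duration of TNF-α in the libraries, are not given in the sources used here.

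Cells recognise viral or misplaced RNA through receptors in the cytosol and in endosomes. RIG-I (encoded by DDX58) and MDA5 (IFIH1) bind RNA in the cytosol and signal through MAVS on mitochondria, whereas TLR3 binds it in endosomes and signals through TICAM1, also called TRIF. Both adaptors reach the kinases TBK1 and IKKε (IKBKE), which activate interferon regulatory factors, and many of the receptors are themselves interferon-stimulated genes in epithelial cells. EIF2AK2 (PKR) and ZBP1 act beside this route: PKR halts translation by phosphorylating eIF2α, and ZBP1 can start necroptosis.

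The promoters are shown first, because members that moved together below could be compared for shared letters. RefSeq promoters (GRCh38.p14) were matched for 8 of the 10 genes, and DHX58 and ZBP1 had no entry. The search covered both strands from 250 bases before to 50 bases after the start site. It looked for 2 copies of GAAA with any 2 bases between, the core of the interferon-stimulated response element (ISRE), for GGG and TTTCC with any 2 bases between, a form of the NF-κB site, and for TTC and GAA with any 3 bases between, the interferon-γ-activated site known as GAS. The sequences below are those of the 5 members with a match, read 5′ to 3′ on the gene's strand, with every match in capitals.
IFIH1: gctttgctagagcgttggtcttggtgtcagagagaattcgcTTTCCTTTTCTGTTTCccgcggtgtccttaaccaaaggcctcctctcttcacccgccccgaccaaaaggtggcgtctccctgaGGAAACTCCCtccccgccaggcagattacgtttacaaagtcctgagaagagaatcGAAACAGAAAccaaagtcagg
TLR3: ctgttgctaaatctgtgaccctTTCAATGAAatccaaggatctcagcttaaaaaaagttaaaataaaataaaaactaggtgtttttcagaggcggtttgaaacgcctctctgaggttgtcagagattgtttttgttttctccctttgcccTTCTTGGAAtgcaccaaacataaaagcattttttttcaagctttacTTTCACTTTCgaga
TICAM1: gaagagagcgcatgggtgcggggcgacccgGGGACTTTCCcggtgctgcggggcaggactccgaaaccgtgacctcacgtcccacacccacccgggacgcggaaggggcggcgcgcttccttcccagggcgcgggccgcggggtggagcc
DDX58: tcatttcctcGGAAAATCCCtgctttcccc
EIF2AK2: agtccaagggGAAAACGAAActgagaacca

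The IFIH1 stretch lies at chr2:162318685-162318884 on the minus strand and ends at the base before the RefSeq start. It held 3 ISRE cores, of which the first and second overlap by 4 bases, and 1 NF-κB form. The TLR3 stretch (chr4:186068956-186069165, plus strand) held 2 GAS letters and an ISRE core that spans the start site. The TICAM1 stretch (chr19:4831713-4831862, minus strand) held 1 NF-κB form. The DDX58 stretch (chr9:32526253-32526282, minus strand) also held an NF-κB form, 76 to 67 bases before the RefSeq start, at the same distance as in IFIH1. The EIF2AK2 stretch (chr2:37156967-37156996, minus strand) held an ISRE core across the start. GENCODE 29 puts the first base of DDX58 128 bases and that of EIF2AK2 85 bases further upstream, so both short stretches lie inside the genes as the expression table defines them. For IFIH1 it lies 19 bases further upstream, so the NF-κB forms of DDX58 and IFIH1 share their distance from the RefSeq start only. MAVS, TBK1 and IKBKE held none of these letters in the window. Over the members, 3 of 8 promoters held an ISRE core, 3 of 8 an NF-κB form and 1 of 8 a GAS, against 3.57%, 1.91% and 7.66% of all 35116 promoters of the same length. A match is a description of letters and not evidence of binding.

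**Figure D1:**
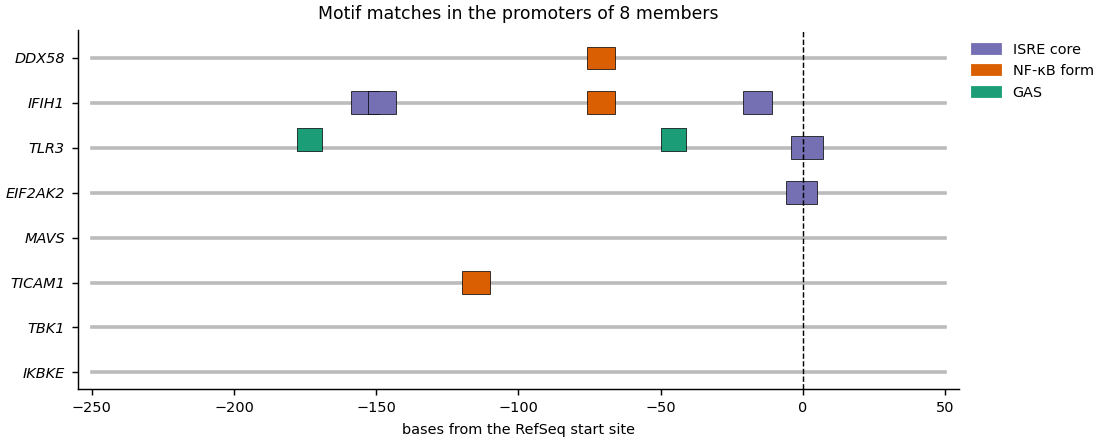
Motif matches in the promoters of the 8 matched members, one row per gene, plotted by their distance in bases from the RefSeq start site (dashed line). Purple boxes are ISRE cores, orange boxes NF-κB forms and green boxes GAS letters. IFIH1 carries 3 ISRE cores and 1 NF-κB form, while the rows of MAVS, TBK1 and IKBKE are empty.

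Between 31008429 and 37624399 reads fell on genes in each library, recovered from the deposited FPKM as whole numbers. Replicates of a group correlated at r = 0.967 or more over genes. The difference in reads between replicates was also measured as chi-squared per degree of freedom. It was 35.0 and 45.4 for the second knockdown library against the first and the third, and 7.35 between the first and the third. These included the highest and the lowest value of all replicate pairs. The second knockdown library had the lowest share of mitochondrial reads of the 12, at 2.95%, against 3.69% to 4.68% in all libraries other than this one. The targeted gene followed the labels: HTRA2 stood at 7.44, 7.18 and 7.22 FPKM in the knockdown and at 15.4, 13.96 and 14.2 with TNF-α, although its exons share 483 bases with AUP1 on the other strand. Of 12 colon epithelial markers, 5 reached a mean of 1 FPKM (KRT8, KRT18, KRT19, CDH1 and EPCAM), and the intestinal transcription factors CDX1 and CDX2 were at or near 0. All 4 squamous or basal markers (KRT5, KRT6A, KRT14 and TP63) were expressed, with a summed level of 212 to 260 FPKM in the knockdown and 176 to 192 with TNF-α. None of 9 leukocyte markers reached 1 FPKM, and PTPRC (CD45) and CD3E were at or near 0. The sum of the leukocyte markers was nevertheless 0.792 to 1.24 FPKM in the knockdown and 0.150 to 0.354 with TNF-α. It was 0.34 to 0.61 in medium and 0.50 to 0.60 with 5-OH-TMT, so TNF-α was the low group. CD14 and IL3RA had the highest means among these markers (0.30 and 0.17 FPKM). The part of these differences in the results below was not tested.

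Of the cytosolic receptors of the RIG-I family, all 3 were called higher in the knockdown than with TNF-α, where 9.35% of all genes tested were. The size of the change was largest for IFIH1. IFIH1, which encodes MDA5 and lies at chromosome 2, 162267079 to 162318703, stood at 6.87, 5.74 and 7.17 FPKM in medium. It reached 10.5, 10.1 and 11.1 FPKM in the TNF-α group, and 10.5, 8.85 and 12.6 FPKM when 5-OH-TMT was added. In the knockdown it stood at 27.4, 28.9 and 26.3 FPKM. The 3 steps are thus medium, then both TNF-α groups, which overlap, then the knockdown, and no library crosses from one step to the next. The mean rose 1.60-fold with TNF-α over medium (log2 fold change 0.67, SE 0.12, adjusted p = 0.0057) and 2.61-fold in the knockdown over TNF-α (log2 1.38, SE 0.12, adjusted p = 2.39e-05). Against TNF-α with 5-OH-TMT, the knockdown was 2.59-fold higher (adjusted p = 4.82e-05). In these bulk samples, more cells that express a gene and more of its RNA per cell cannot be told apart.

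DDX58, the gene of RIG-I (chromosome 9, 32455705 to 32526324), took the same order of groups with smaller steps. Its levels were 6.62, 5.05 and 6.81 FPKM in medium, 9.66, 7.04 and 9.37 in the TNF-α group, and 8.32, 7.98 and 10.2 after adding 5-OH-TMT. The knockdown libraries stood at 16.6, 18.03 and 14.8 FPKM, above all 9 others. The rise over TNF-α was 1.90-fold (log2 0.93, SE 0.15, adjusted p = 0.0013) and that over 5-OH-TMT 1.87-fold (adjusted p = 0.0025). TNF-α libraries lay above medium without overlap, with a log2 difference of 0.49 (SE 0.15) that did not pass the test (adjusted p = 0.106). Without the second TNF-α library, which was the lowest of that group, it passed (log2 0.63, adjusted p = 0.0442).

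Within each library, the level of IFIH1 was set against that of DDX58, both per length. The ratio was 1.04 to 1.14 in medium, 1.08 to 1.43 with TNF-α, 1.11 to 1.26 with 5-OH-TMT and 1.60 to 1.77 in the knockdown. Hence the knockdown libraries stood above the others in this ratio, a comparison that was described and not tested. The lengths used cover all annotated exons, so the ratio does not tell which mRNA was more abundant.

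DHX58 encodes LGP2, which belongs to the same family but lacks the signalling domains of RIG-I and MDA5 and modulates them. It lies at chromosome 17, 42101404 to 42112733, and was expressed at a low level of 0.551 to 0.766 FPKM in medium. Its libraries stood at 0.809, 0.492 and 0.872 FPKM with TNF-α, 1.12, 1.09 and 0.890 with 5-OH-TMT, and 1.72, 0.909 and 1.999 in the knockdown. The 5-OH-TMT libraries were all above the TNF-α libraries, but the second knockdown library fell among those of 5-OH-TMT. The knockdown was 2.13-fold above TNF-α (log2 0.96, SE 0.27, adjusted p = 0.0285). This call rested on single libraries: the adjusted p was 0.116 without the second TNF-α library, 0.108 without the first knockdown library and 0.106 without the third. Its log2 difference was also 0.54 with a pseudocount of 1, as low values weigh less there.

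**Figure D2:**
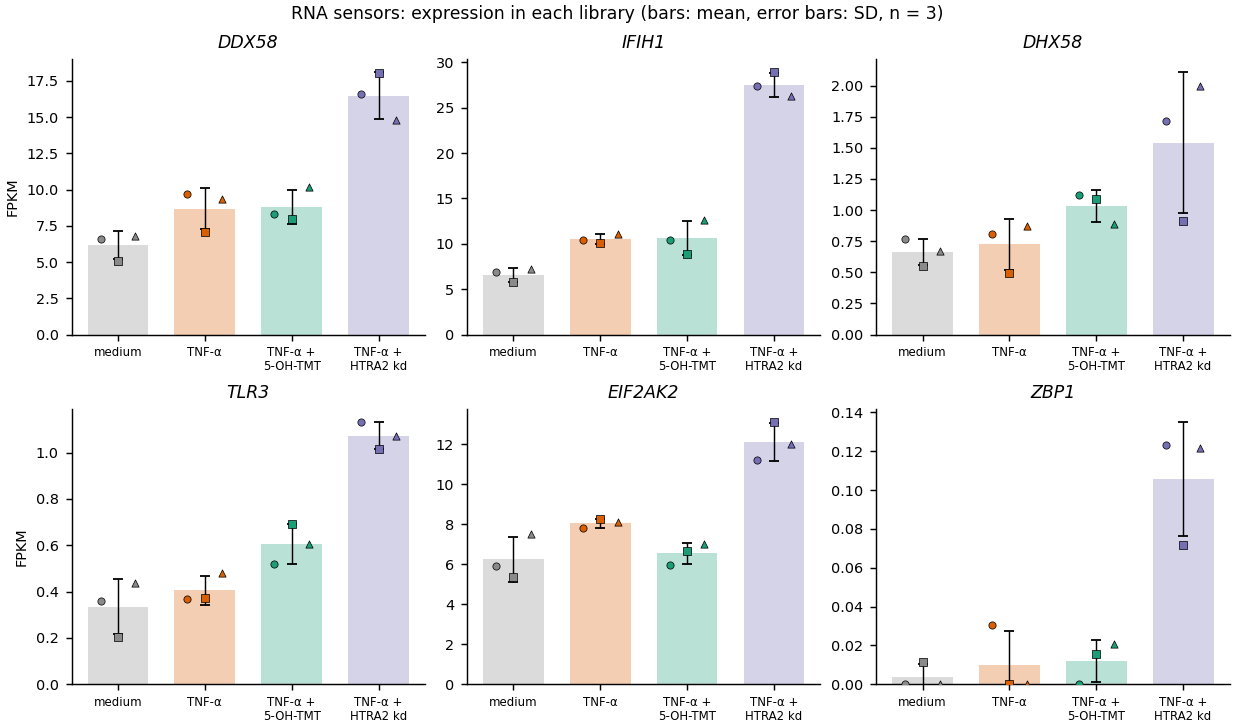
Expression of the 6 RNA receptors in FPKM (vertical axis, starting at 0) in the 4 groups. Bars are group means, error bars the SD of 3 libraries, and circles, squares and triangles are libraries 1, 2 and 3. All 3 knockdown libraries lie above every other library for DDX58, IFIH1, TLR3, EIF2AK2 and ZBP1, and for DHX58 the second knockdown library (0.909 FPKM) does not.

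The endosomal receptor and its adaptor differed in level and in pattern. TLR3 (chromosome 4, 186069152 to 186088069) was scarce, at 0.361, 0.204 and 0.437 FPKM in medium and 0.369, 0.372 and 0.479 with TNF-α. It stood at 0.520, 0.691 and 0.604 FPKM with 5-OH-TMT and at 1.13, 1.01 and 1.07 in the knockdown. Libraries of medium and TNF-α overlapped, those of 5-OH-TMT lay above both, and those of the knockdown above all. The knockdown exceeded TNF-α 2.64-fold (log2 1.22, SE 0.22, adjusted p = 0.0024), although with a pseudocount of 1 the log2 difference was 0.56. The step from 5-OH-TMT to the knockdown was 1.78-fold (log2 0.74, SE 0.22, adjusted p = 0.0387), and it lost its call without any 1 of the 6 libraries compared (adjusted p 0.0692 to 0.130). The rise from TNF-α to 5-OH-TMT, of 0.48 (SE 0.22) on the log2 scale, did not pass (adjusted p = 0.246). TLR3 rested on 44 to 275 reads per library.

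TICAM1, the adaptor that carries the TLR3 signal (chromosome 19, 4815932 to 4831704), already rose with TNF-α. It stood at 8.75, 10.3 and 9.00 FPKM in medium and at 15.4, 16.6 and 14.7 with TNF-α, a rise of 1.66-fold (log2 0.73, SE 0.12, adjusted p = 0.0042). With 5-OH-TMT the libraries stood at 18.5, 17.9 and 20.8 FPKM, and in the knockdown at 24.0, 17.1 and 23.6. Both groups lay above all TNF-α libraries, and they overlapped with each other because of the second knockdown library. The difference from TNF-α was 0.45 on the log2 scale in the knockdown (SE 0.12, adjusted p = 0.0249) and 0.29 with 5-OH-TMT (SE 0.12, adjusted p = 0.222). The knockdown call was lost without the first or the third TNF-α library (adjusted p = 0.0670 and 0.0848) and without the first or the third knockdown library (0.107 and 0.0896). Knockdown and 5-OH-TMT differed by 0.16 on the log2 scale (95% interval -0.10 to 0.43), which passed only without the second knockdown library (log2 0.32, adjusted p = 0.0477).

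MAVS, the mitochondrial adaptor of RIG-I and MDA5 (chromosome 20, 3846799 to 3876123), was called higher in no comparison. It stood at 17.1, 17.2 and 15.7 FPKM in medium, 17.7, 17.6 and 15.1 with TNF-α, 18.1, 18.5 and 18.8 with 5-OH-TMT, and 15.1, 13.4 and 16.5 in the knockdown. Its difference between TNF-α and medium was 0.01 on the log2 scale, with a 95% interval of -0.18 to 0.19. The knockdown lay below 5-OH-TMT without overlap, and this was the one lower call among the members (log2 -0.30, SE 0.086, adjusted p = 0.0354). It failed without any of the 3 libraries of 5-OH-TMT (adjusted p = 0.0832, 0.1002 and 0.0931) and without the first or second knockdown library (0.0797 and 0.112). Against TNF-α the difference was -0.16 (adjusted p = 0.230). Per length, TICAM1 was 0.510 to 0.601 of MAVS within the medium libraries, 0.874 to 0.973 with TNF-α, 0.963 to 1.11 with 5-OH-TMT and 1.27 to 1.59 in the knockdown. The ratio was therefore higher in every knockdown library than in any medium library. The lengths used cover all annotated exons (2676 bases for TICAM1 and 11771 for MAVS), so the ratio does not tell which mRNA was more abundant.

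EIF2AK2, the gene of PKR, rose in the knockdown, while its 5-OH-TMT libraries lay below those of TNF-α. The gene (chromosome 2, 37099210 to 37157065) stood at 5.90, 5.34 and 7.52 FPKM in medium and at 7.82, 8.24 and 8.10 with TNF-α. The 5-OH-TMT libraries lay within the range of medium, at 5.96, 6.65 and 7.02 FPKM, all below those of TNF-α. The knockdown libraries were the highest, at 11.2, 13.1 and 12.02 FPKM. The rise over TNF-α was 1.51-fold (log2 0.58, SE 0.11, adjusted p = 0.0046) and that over 5-OH-TMT 1.85-fold (log2 0.88, SE 0.11, adjusted p = 5.83e-04). Neither the difference between TNF-α and medium (0.37, adjusted p = 0.110) nor that between 5-OH-TMT and TNF-α (-0.30, 95% interval -0.55 to -0.05 before adjustment, adjusted p = 0.185) passed, and the former passed without the third medium library (0.51, adjusted p = 0.0124). The exons of EIF2AK2 share 35 bases with GPATCH11 on the other strand, and the library kit does not mark strand.

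ZBP1, the sensor of left-handed Z-form nucleic acids (chromosome 20, 57603846 to 57620576), was close to undetected outside the knockdown. The medium libraries held 0, 2 and 0 reads of it, the TNF-α libraries 6, 0 and 0, and the 5-OH-TMT libraries 0, 3 and 4. The knockdown libraries held 14 to 24 reads each, or 0.123, 0.0718 and 0.122 FPKM. The pooled reads were 62 in the knockdown and 6 with TNF-α, a ratio per depth of 10.01 with a 95% exact interval of 4.35 to 28.3 that covers counting error alone. Against medium, where every library was at or under a floor of 3 reads per library, the knockdown was at least 6.30-fold higher. ZBP1 fell below the filter on low values, and it was called in a fit of all detected genes (adjusted p = 0.0059).

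Of the kinases, IKBKE was called and TBK1 was not. TBK1 (chromosome 12, 64451880 to 64502108), the kinase expressed in most cell types, stood at 3.32, 2.97 and 4.75 FPKM in medium and 4.65, 4.14 and 3.94 with TNF-α. With 5-OH-TMT it was at 3.15, 4.19 and 4.19 FPKM and in the knockdown at 4.64, 5.92 and 5.23. No comparison of TBK1 passed the test. The knockdown libraries lay above those of 5-OH-TMT without overlap (log2 0.45, 95% interval 0.08 to 0.82 before adjustment, adjusted p = 0.0944). TBK1 shares 702 exon bases with the antisense gene AC135279.3, listed at 0.0741 FPKM on average.

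IKBKE (chromosome 1, 206470476 to 206496889), the inducible partner of TBK1, rose most of all members with TNF-α. It stood at 4.53, 4.89 and 4.30 FPKM in medium and 15.4, 15.6 and 13.0 with TNF-α, a 3.20-fold rise (log2 1.66, SE 0.12, adjusted p = 6.71e-06). With 5-OH-TMT it was at 19.4, 18.5 and 21.3 FPKM, above every TNF-α library, and in the knockdown at 22.9, 17.2 and 23.3. The further rise in the knockdown was 0.52 on the log2 scale (SE 0.12, adjusted p = 0.0106), and without the first knockdown library it was 0.45 (adjusted p = 0.0534). With 5-OH-TMT the difference from TNF-α was 0.43 (SE 0.12), which did not pass over all genes (adjusted p = 0.111). Knockdown and 5-OH-TMT differed by 0.09 (95% interval -0.17 to 0.35). In the ratio of IKBKE to TBK1 within a library, medium gave 0.904 to 1.65, TNF-α 3.29 to 3.76, 5-OH-TMT 4.41 to 6.18 and the knockdown 2.90 to 4.94. The ratio was therefore at most 1.65 in medium and at least 2.90 in all 9 libraries given TNF-α. As the lengths used cover all annotated exons, it does not give the relative amounts of both mRNAs.

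**Figure D3:**
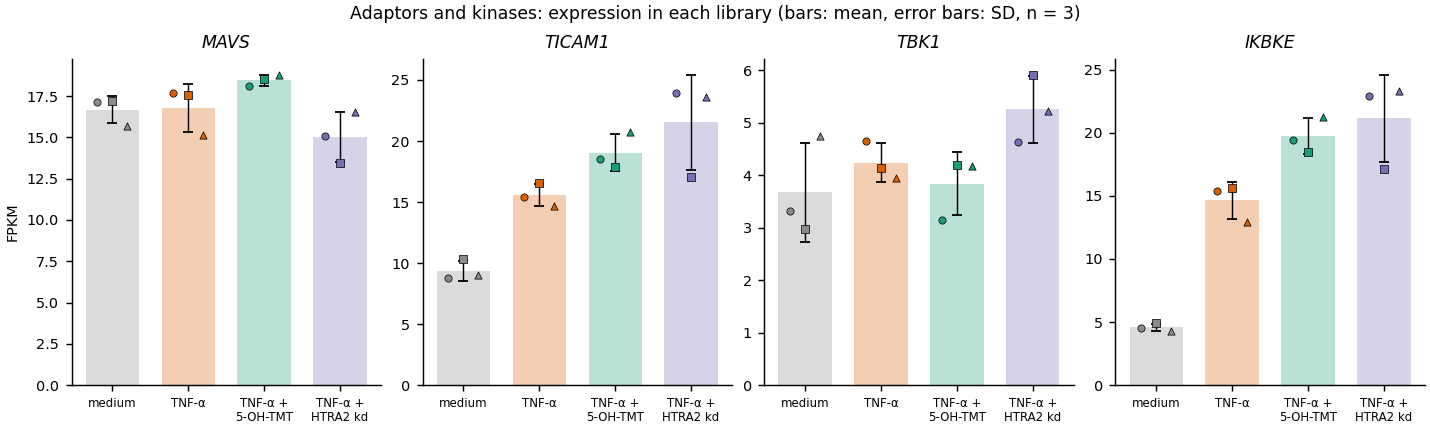
Expression of the adaptors MAVS and TICAM1 and the kinases TBK1 and IKBKE in FPKM (vertical axes from 0), with bars for group means, error bars for the SD of 3 libraries, and circles, squares and triangles for libraries 1, 2 and 3. IKBKE and TICAM1 step up from medium to TNF-α without overlap, MAVS stays between 13.4 and 18.8 FPKM in all libraries, and the second knockdown library is the lowest of its group for MAVS, TICAM1 and IKBKE.

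Across the 9 members that passed the filter, TNF-α against medium gave 3 higher calls (IKBKE, TICAM1 and IFIH1) and 0 lower ones, where 3.22% of the 18079 genes tested were called higher and 0.885% lower. At an unadjusted p under 0.05 there were 5, all higher (14.8% of all genes in either direction), and voom on the recovered reads also called 3. Groups did not overlap for these 5 members (IKBKE, TICAM1, IFIH1, DDX58 and EIF2AK2), against 11.1% of genes higher without overlap. The median log2 difference was 0.37 over the members and -0.0020 over all genes. A stricter size rule asked for a fitted change of 2-fold or more on the log2(FPKM + 0.1) scale at an unadjusted p up to 0.05. IKBKE alone of the 9 met it (1.76% of all genes higher).

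With 5-OH-TMT against TNF-α, 0 of the 9 members were called by limma or by voom, and 0.0332% of genes were called higher and 0.00553% lower. At an unadjusted p under 0.05 there were 4 (IKBKE, TICAM1 and TLR3 higher, EIF2AK2 lower), against 20.1% of all genes in either direction. The libraries did not overlap for 5 members that were higher with 5-OH-TMT (MAVS, TICAM1, IKBKE, DHX58 and TLR3), beside 16.3% of all genes, and for EIF2AK2, which was lower, beside 15.5%. IFIH1 and DDX58 had the smallest differences: -0.00098 on the log2 scale for IFIH1 (95% interval -0.26 to 0.26) and 0.03 for DDX58 (-0.30 to 0.35). So the data bound any change of these receptors by 5-OH-TMT to within about these limits, and do not show that there was none.

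In the knockdown against TNF-α, 7 of the 9 members were called higher and 0 lower, where 9.35% of all genes were called higher and 8.08% lower. They were IFIH1, TLR3, DHX58, DDX58, EIF2AK2, IKBKE and TICAM1, all 7 without overlap (17.5% of all genes), and MAVS and TBK1 were not called. The same number was called by voom, and at an unadjusted p under 0.05 there were again 7, all higher (31.1% of all genes in either direction). The median log2 difference was 0.58 over the members and -0.0034 over all genes. In the fit of these 2 groups alone, 4 members were called. Without the first knockdown library the count was also 4. The 2-fold rule was met by 2 members, IFIH1 and TLR3 (3.08% of all genes higher). DHX58 was 2.13-fold higher in mean FPKM but missed the rule, with a fitted log2 difference of 0.96. These comparisons with TNF-α share its 3 libraries, so they are not independent of each other.

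The difference between the knockdown and TNF-α with 5-OH-TMT takes in no library of the TNF-α group. Its spread was nevertheless estimated over all 12 libraries, and it shares the 3 knockdown libraries with the comparison above. Here 4 members were called higher (IFIH1, DDX58, EIF2AK2 and TLR3) and 1 lower (MAVS), where 7.85% of genes were called higher and 7.43% lower. TBK1 joined them in not overlapping, so that 5 members stood higher without overlap (18.2% of all genes) and 1 lower (17.6%). TICAM1 and IKBKE, called against TNF-α, were not called against 5-OH-TMT. At an unadjusted p under 0.05 there were 6 members (29.7% of all genes in either direction), and IFIH1 alone met the 2-fold rule (2.18% higher). The count of 5 was 3 without any 1 library of 5-OH-TMT or without the first knockdown library, and IFIH1, DDX58 and EIF2AK2 were called in each of these settings.

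**Figure D4:**
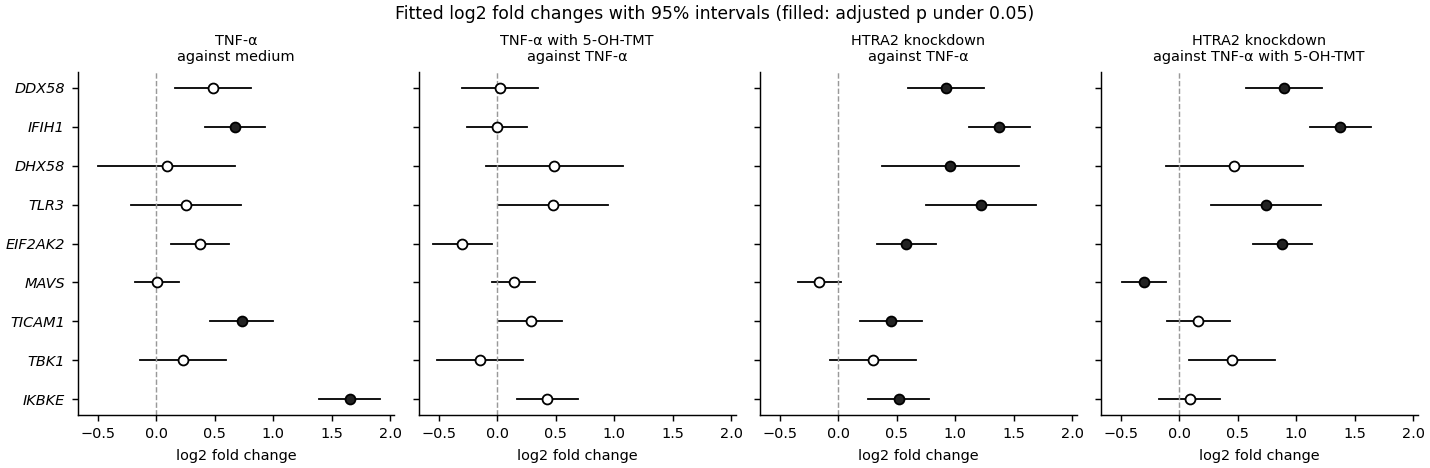
Fitted log2 differences (horizontal axes) of the 9 tested members in the 4 comparisons, with 95% confidence intervals as lines. Filled points have an adjusted p under 0.05. With TNF-α against medium IKBKE lies farthest right at 1.66, with 5-OH-TMT every point is open, and in the knockdown IFIH1 lies at 1.38 against either group.

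The other genes of these routes were taken from 7 lists. Regulators and adaptors of RNA sensing had 25 tested genes of 27. With TNF-α 3 of them rose (12% of the list, where 3.22% of all genes did): TRAF3, an adaptor between MAVS or TRIF and the kinases (log2 0.99, adjusted p = 1.12e-05), the deubiquitinase CYLD (0.83, adjusted p = 0.0011) and TRIM25, a ubiquitin ligase known for RIG-I (0.70, adjusted p = 0.0020). In the knockdown 8 rose over TNF-α and none fell (32% of the list, where 9.35% of all genes rose and 8.08% fell). The 8 became 3 without the third knockdown library, 4 without the first, 5 without the third TNF-α library and 5 in the fit of the 2 groups alone. Among them were the ubiquitin ligase TRIM38 (0.82, adjusted p = 4.68e-05), TBKBP1, which binds TBK1 (0.69, adjusted p = 0.0125, but 0.0531 and 0.0523 without the first and the third knockdown library), and ADAR, which edits double-stranded RNA (0.56, from 42.4 to 62.3 FPKM, adjusted p = 7.02e-04). CYLD rose again (0.52, adjusted p = 0.0085), while TRAF3 stood at 13.7 FPKM in the knockdown and 13.6 with TNF-α. Hence the list holds inhibitors of the route (CYLD, ADAR) beside activators. CD14, on this list and a leukocyte marker too, was also called, its libraries holding 4 to 10 reads under TNF-α and 20 to 50 in the knockdown, but it held 14 to 33 in medium and 12 to 20 with 5-OH-TMT, so TNF-α was its low group. Its call was lost without the second or the third TNF-α library or the third knockdown library (adjusted p = 0.0593, 0.0535 and 0.0618). The medians were 0.04 and 0.18 in the TNF-α and knockdown comparisons.

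Other RNA sensors and effectors had 18 tested genes of 21, and 11 rose in the knockdown over TNF-α while 2 fell (61.1% and 11.1% of the list, where 9.35% and 8.08% of all genes did, median log2 0.65). The OAS enzymes bind double-stranded RNA and make a second messenger. OAS2 went from 2.55 to 19.9 FPKM (log2 2.92, adjusted p = 2.59e-07), OAS1 from 4.50 to 29.2 (2.66, adjusted p = 3.68e-06) and OAS3 from 47.6 to 102.8 (1.11, adjusted p = 4.02e-05). The IFIT genes, whose proteins bind viral RNA, also rose: IFIT3 by 1.04, IFIT2 by 0.80, IFIT1 by 0.70 and IFIT5 by 0.60. The helicases DHX9 (-0.42, adjusted p = 0.0015) and DDX1 (-0.36, adjusted p = 0.0270) were the pair that fell, a share near that of all genes. DDX1 was no longer called without the first or the third TNF-α library (adjusted p = 0.0654 and 0.0953) or the first or the third knockdown library (0.112 and 0.0573). With TNF-α against medium, OAS1 (0.99), OAS3 (0.96), OAS2 (0.83) and DDX60L (0.61) rose (22.2% of the list, where 3.22% of all genes did). DDX60L was not called without any 1 of the 6 libraries compared (adjusted p 0.0558 to 0.134). It was also among the 11 of the knockdown over TNF-α. That call was kept without the third knockdown library and lost without any other single library compared (adjusted p 0.0529 to 0.131). Over 5-OH-TMT its call was lost without the first or the second library of either group (adjusted p 0.0570 to 0.0668).

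Among the transcription factors and interferons that lie downstream, 12 of 16 genes were tested, and 3 of these (CXCL11, IFNL2 and IFNL3) passed the filter only through the knockdown, where they are high. Of the other 9, 5 rose in the knockdown over TNF-α and none fell, where 9.35% of all genes rose and 8.08% fell. The median log2 difference was 0.63 over these 9 and -0.0034 over all genes. Over all 12 the count was 8 and the median 1.49, which was 0.55 with a pseudocount of 1 and 0.46 over the 8 genes with a mean of at least 1 FPKM, of which 4 rose. IRF7, the interferon-inducible regulatory factor, rose from 13.0 to 30.8 FPKM (1.23, adjusted p = 6.73e-05), and IRF1 rose by 0.63 (adjusted p = 1.46e-04). IRF3, the factor that TBK1 phosphorylates, stood at 32.0 FPKM in the knockdown and 27.1 with TNF-α (0.24, adjusted p = 0.0784). The chemokine CXCL10 held 0 reads in every medium library, 9 to 21 with TNF-α, 15 to 42 with 5-OH-TMT and 169 to 257 in the knockdown. Its rise with TNF-α over medium was at least 5.35-fold, and its rise in the knockdown over TNF-α was 3.41 on the log2 scale (adjusted p = 6.13e-05). CCL5 rose by 1.28 with TNF-α and by 1.86 further in the knockdown. Of the interferons, IFNL1 held 75, 48 and 47 reads in the knockdown against 8, 12 and 26 with TNF-α (1.75, adjusted p = 0.0197). That call was lost without the first or the second TNF-α library (adjusted p = 0.0784 and 0.0617) and without the first knockdown library (0.0855). IFNB1 was at 0 to 2 reads in every library, so no change of it was detectable at this depth. IFNL2 and IFNL3, near-identical copies whose reads may be shared, held at most 22 reads in the knockdown and 0 to 2 elsewhere. With TNF-α against medium 4 of the 12 rose, where 3.22% of all genes did: CXCL10, NFKB1 (1.30), CCL5 and IRF1 (0.56).

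Beside the lists that follow, 3.22% of all genes were called higher with TNF-α, and 9.35% higher and 8.08% lower in the knockdown. In the death arm below ZBP1 and TICAM1, CFLAR was the 1 of 5 tested genes (20% of the list) that rose, with TNF-α (0.69, adjusted p = 0.0024) and again in the knockdown (0.97, adjusted p = 1.05e-04). It encodes cFLIP, an inhibitor of caspase-8, and RIPK1, MLKL, CASP8 and FADD differed by -0.05 to 0.13 in the knockdown. RIPK3, the necroptosis kinase that ZBP1 recruits, held 0 to 2 reads in every library. Of the 12 eIF2α kinases and stress-response targets, ATF3 (0.65) and EIF2AK3, the kinase PERK (0.59), rose in the knockdown, and EIF2S1, which encodes eIF2α (-0.48), and EIF2AK4, the kinase GCN2 (-0.27), fell (2 in each direction, 16.7% of the list). EIF2AK4 lost its call without the second TNF-α library (adjusted p = 0.0513) or the first or the third knockdown library (0.0569 and 0.0519). ATF4 stood at 175 and 165 FPKM. In DNA sensing, IFI16 (0.63) and SAMHD1 (0.60) rose among 5 tested genes in the knockdown (40% of the list). CGAS rose with TNF-α (0.50, adjusted p = 0.0246), a call lost without the first or the second medium library (0.0720 and 0.0943) or the second or the third TNF-α library (0.107 and 0.0949). Of 12 genes of the RNA interference machinery, DGCR8, the partner of Drosha, fell in the knockdown (-0.75, adjusted p = 1.18e-04). This is 8.33% of the list, near the share of all genes that fell. None was called with TNF-α (limma and voom), and 3 had an unadjusted p under 0.05, where 14.8% of all genes did in either direction.

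With 5-OH-TMT against TNF-α, 0 of the 89 genes tested over the 7 lists were called by limma and 1 by voom. Of all 18079 genes tested, limma called 7 and voom 236. At an unadjusted p under 0.05 there were 14 list genes higher and 8 lower, beside 20.1% of all genes in either direction. Examples were TRADD (0.36, adjusted p = 0.122) and IRF1 (0.31, adjusted p = 0.0946). In the knockdown against 5-OH-TMT, where 7.85% of all genes were higher and 7.43% lower, 11 of 18 other RNA sensors rose and none fell. Of the 9 factors and interferons that passed the filter without the knockdown, 5 rose. Of 25 regulators 6 rose, and 3 did without the first library of 5-OH-TMT. Among the 12 eIF2α kinases and stress-response targets, EIF2AK3 (0.54) and ATF3 (0.56) rose, and CHAC1 (-1.07, adjusted p = 5.13e-04) and TRIB3 (-0.60, adjusted p = 0.0039) fell. EIF2AK3 lost its call without the second library of 5-OH-TMT (adjusted p = 0.0527). In the knockdown against TNF-α, the regulators called higher numbered 9 without the second knockdown library, the one with the lowest mitochondrial share, and 4 and 3 without the first and the third. The other sensors numbered 10 higher and 3 lower without the second, 10 and 1 without the first, and 11 and 1 without the third.

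**Figure D5:**
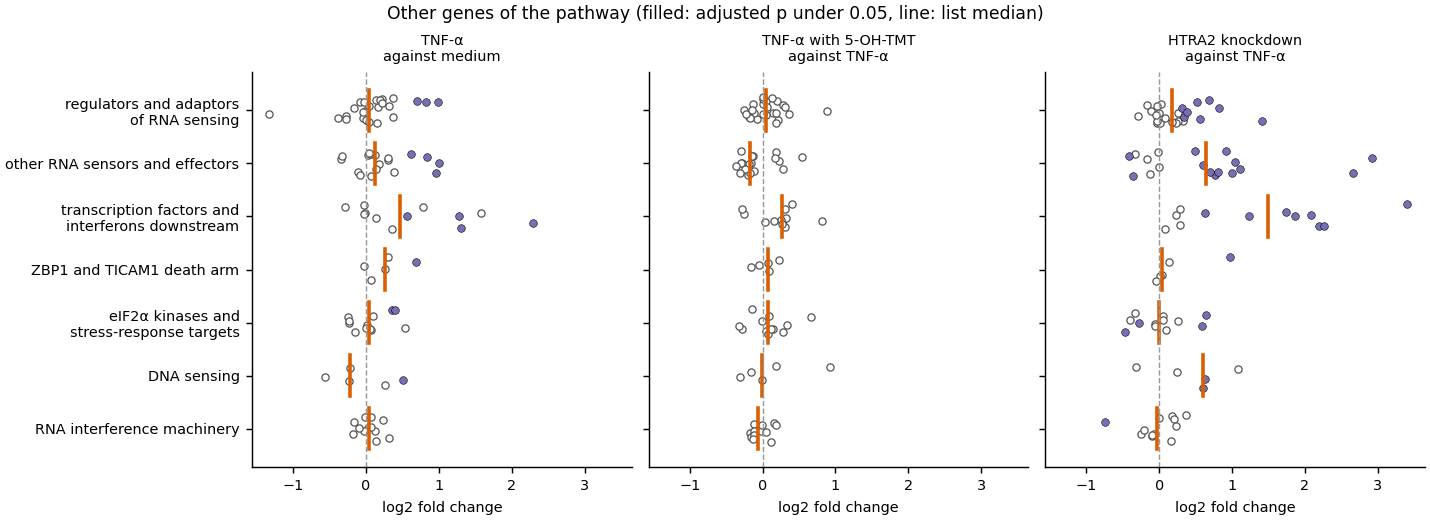
Log2 differences (horizontal axes) of the tested genes of the 7 lists in 3 comparisons, one point per gene, filled where the adjusted p is under 0.05, with an orange line at each list's median. The knockdown panel shows the other RNA sensors at a median of 0.65 and the factors and interferons at 1.49, a value that is 0.63 without the 3 genes that pass the filter only through the knockdown, and the 5-OH-TMT panel has no filled point.

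The genes most like each member over the 12 libraries were ranked by Pearson's r of log2 levels among 11178 genes, as a description in which all points share the 4 groups. IFIH1 was close to DUSP16 (r = 0.991) and B2M (0.990), and DDX58 to BACH1, ITGB6 and NBR1 (0.983 to 0.990). IKBKE was closest to NFKBIE (0.993), TNIP1 (0.993) and SMAD3 (0.992), and TICAM1 to TAPBP, SH3RF2 and SLC2A6 (0.981 to 0.988). EIF2AK2 followed MPZL2, ITPRIPL2 and IFIT5 (0.975 to 0.982), MAVS followed FLNA, TECPR2 and PHF8 (0.956 to 0.977), and TBK1 followed UBA6, NBN and SH3BGRL (0.908 to 0.934). Within the members, IFIH1 and DDX58 (r = 0.978) and TICAM1 and IKBKE (r = 0.976) were the closest pairs. MAVS was the member with negative values against most others, at -0.55 with IFIH1 and -0.70 with EIF2AK2. In group means, TICAM1 and IKBKE had their larger step from medium to TNF-α, and IFIH1 and DDX58 theirs from TNF-α to the knockdown, a difference between the pairs that was not tested.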

How the data were processed

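Poly(A) RNA-seq of NCM460 cells was analysed from 1 table of FPKM per gene and library, deposited by the authors with the gene length used. The submitters' processing notes name CASAVA 1.8, HISAT2 2.0.4, HTSeq 0.9.1 and hg38, and the library kit was not a directional one. All 58735 genes had the coordinates of GENCODE 29. Multiplying FPKM by length and depth gave whole reads for 100% of values within 0.02 reads. A floor of 3 reads was 0.0805 to 0.0962 FPKM for a gene of 1 kb; intervals and floors cover counting error only.

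Genes under a mean of 0.1 FPKM were left out, and log2(FPKM + 0.1) of the other 18079 was fitted in limma 3.58.1 (R 4.3.3) over all 12 libraries, with 1 mean per group, a moderated variance with trend and 8 residual degrees of freedom. Tests were two-sided with Benjamini-Hochberg adjustment over all genes tested, called at an adjusted p under 0.05. Fold changes are on the log2(FPKM + 0.1) scale, which understates those of low genes; folds given as such are of mean FPKM. An exact permutation of 3 libraries against 3 cannot go below p = 0.1. Nothing states that replicates were separate cultures, so p-values measure the spread between these samples, which may be technical. Alternatives were another pseudocount, filter, scaling or fit, voom on the recovered reads, and each library left out; list counts under these, and with a filter that ignores the knockdown, were added after seeing the data. The rule named the members, HTRA2, up to 4 called genes per list and comparison (mean FPKM of at least 1, largest change), and the 3 genes most like each member (1 of these is not reported here); other list genes named were chosen after their values were seen. The members and lists were chosen with earlier results of these data known.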

Additional observations from a re-analysis of the deposited data

How the results depend on the processing

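In every setting that tested them, IKBKE, TICAM1 and IFIH1 kept their calls with TNF-α, IFIH1, DDX58, EIF2AK2 and TLR3 kept theirs in the knockdown over TNF-α, and IFIH1, DDX58 and EIF2AK2 kept theirs over 5-OH-TMT. The 7 members called in the knockdown over TNF-α became 4 in the fit of the 2 groups alone and 4 to 7 with 1 library left out. The 5 called over 5-OH-TMT became 3 with the replicate number as a block, 3 to 4 with 1 library left out. With TNF-α 3 to 4 were called with 1 library left out. The cause was not tested. Same-numbered libraries deviated together by r = -0.052 to 0.038, so the numbers do not pair the samples, and the replicate block otherwise changed the calls of TLR3 (adjusted p = 0.0557) and MAVS (adjusted p = 0.0683) over 5-OH-TMT alone. DHX58, TICAM1 and MAVS also lost their calls with no filter (adjusted p = 0.0667, 0.0515 and 0.0586), and TBK1 gained one over 5-OH-TMT with voom (0.0407). With every library kept, a call over 5-OH-TMT was lost in 7 combinations of member and setting. Across these settings the adjusted p over 5-OH-TMT reached 0.0919 for TLR3 and 0.0704 for MAVS.

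Differences that changed sign were all near 0 and uncalled. MAVS with TNF-α was -0.027 after quantile normalization and -0.011 with voom, and -0.035 to 0.081 with 1 library left out. DDX58 with 5-OH-TMT was -0.013 with voom and -0.12 to 0.11 with 1 library left out, and IFIH1 was 7.28e-05 with a pseudocount of 1, 6.84e-05 with median of ratios scaling and -0.13 to 0.12. DHX58 with TNF-α was -0.045 to 0.31 with 1 library left out.

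Over all genes, 742 were called with TNF-α and 392 in the fit of 2 groups. With 5-OH-TMT 7 were called, against 911 in the fit of 2 groups, 236 by voom, 127 at a mean FPKM of at least 1 and 1 to 8 in the other settings; the 2-group fit called 8 of the 89 list genes, 4 in each direction. In the knockdown 3152 became 2015 without its first library and 2062 without the second of TNF-α; over 5-OH-TMT 2762 became 1314 to 2706 with 1 library left out, at 1416 and 1314 without the first and the second library of 5-OH-TMT and 1757 and 1770 without those of the knockdown. Scalings moved the median of all genes by less than 0.04. Depth limits ZBP1, IFNB1, RIPK3 and the interferons λ, which rest on a few reads.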
